A study of Mus musculus with 4 samples.

Results

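Gm10800, Gm10801, Gm10717 and Gm10722 are predicted mouse genes that resemble satellite repeats, and they drew far more ATAC-seq reads than their size would give. They are 4 of the 46406 rows of the deposited table, taken by symbol. They were chosen by their high read counts and their lower values under Zscan4 overexpression in these same libraries. Both are therefore described here, and neither is tested. All 4 genes had reads in every library.

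All libraries were made from the J1 line, mouse embryonic stem cells from the inner cell mass of blastocysts, grown without feeder cells and labelled passage PN+8. There were 2 libraries from cells overexpressing Zscan4 (Zscan4 OE) and 2 control libraries with the genotype wild type. The labels name neither the vector, the promoter, the degree of overexpression nor a clone, and they do not say whether the replicates were separate cultures. Library totals were 3605774 and 4899494 reads in Zscan4 OE 1 and 2, and 1061428 and 2903602 reads in control 1 and 2.

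Satellite repeats are short units repeated in tandem. In mice the major satellite makes up the DNA next to the centromeres, which is held in condensed heterochromatin by histone H3 lysine methylation, HP1 proteins and DNA methylation. These repeats are transcribed for a short time in the early cleavage embryo, when Zscan4, a zinc finger protein, is also made. A genome assembly holds few of the many copies, so a short satellite-like stretch elsewhere in the assembly can collect reads from copies that the assembly lacks. In ATAC-seq accessible DNA is cut and tagged by the transposase Tn5. For single-copy genes its reads follow open chromatin, whereas for repeats they also follow the copy number and the way multi-mapping reads are placed. The treatment of multi-mapping and duplicate reads by the authors is not stated in the sources used here.

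Values below are whole reads recovered from the deposited RPKM, and RPM, those reads scaled to 1000000 reads of the library's own total. RPM intervals are exact Poisson 95% intervals and cover counting error only. RPKM means RPM per kilobase of the recovered feature length. These lengths were 660 bp for Gm10800, 504 bp for Gm10801, 651 bp for Gm10722 and 3856 bp for Gm10717. The first 3 of these are whole multiples of 3. No position and no sequence of the 4 genes is given here.

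Gm10800 held more reads than any other row, 7486 over the 4 libraries. It had 836 reads in Zscan4 OE 1 and 2326 in Zscan4 OE 2, against 697 in control 1 and 3627 in control 2. These were 232 RPM (216 to 248) in Zscan4 OE 1 and 475 RPM (456 to 494) in Zscan4 OE 2. Control 1 stood at 657 RPM (609 to 707) and control 2 at 1249 RPM (1209 to 1290). The groups did not overlap, and no interval touched another. Within the 660 bp there were 1.27 and 3.52 reads per base in Zscan4 OE 1 and 2, and 1.06 and 5.50 in control 1 and 2, where the table as a whole had 0.0115 reads per base over all 4 libraries together. By reads Gm10800 ranked 5 in Zscan4 OE 1, 1 in Zscan4 OE 2, 2 in control 1 and 1 in control 2. It averaged 353 ± 172 RPM in Zscan4 OE and 953 ± 419 RPM in controls (SD, n = 2), a ratio of 0.371. Single Zscan4 OE libraries stood between 0.186 and 0.723 times single controls.

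Gm10801, with 581 reads, had the lowest ratio of the 4. There were 63 and 128 reads in Zscan4 OE 1 and 2, against 139 and 251 reads in control 1 and 2. Those reads came to 17.5 RPM (13.4 to 22.4) and 26.1 RPM (21.8 to 31.1) in Zscan4 OE 1 and 2, and to 131 RPM (110 to 155) and 86.4 RPM (76.1 to 97.8) in control 1 and 2. The groups did not overlap, and control 1 was the higher control for this gene alone among the 4. The means were 21.8 ± 6.12 RPM in Zscan4 OE and 109 ± 31.5 RPM in controls (SD, n = 2), a ratio of 0.201. Single Zscan4 OE libraries lay between 0.133 and 0.302 times single controls.

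Gm10717, the longest of the 4, had 387 reads. Its 38 and 132 reads in Zscan4 OE 1 and 2 were 10.5 RPM (7.46 to 14.5) and 26.9 RPM (22.5 to 31.9). In control 1 and 2 there were 33 and 184 reads, or 31.1 RPM (21.4 to 43.7) and 63.4 RPM (54.5 to 73.2). The groups did not overlap in RPM, though the interval of Zscan4 OE 2 overlapped that of control 1. As a share of all reads in the table they did overlap, with 0.0271% in Zscan4 OE 2 and 0.0252% in control 1. The group means were 18.7 ± 11.6 RPM in Zscan4 OE and 47.2 ± 22.8 RPM in controls (SD, n = 2), and their ratio was 0.397.

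Gm10722 had 234 reads, of which 151 came from a single library. The other 3 libraries held 22 reads in Zscan4 OE 1, 52 in Zscan4 OE 2 and 9 in control 1. The values were 6.10 RPM (3.82 to 9.24) and 10.6 RPM (7.93 to 13.9) in Zscan4 OE 1 and 2, against 8.48 RPM (3.88 to 16.1) in control 1 and 52.0 RPM (44.0 to 61.0) in control 2. Control 1 lay between the Zscan4 OE libraries, so the groups overlapped. The means of 8.36 ± 3.19 RPM in Zscan4 OE and 30.2 ± 30.8 RPM in controls (SD, n = 2) rested on control 2. Without control 2 the log2 difference was −0.07, against −1.38 with all libraries.

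**Figure D1:**
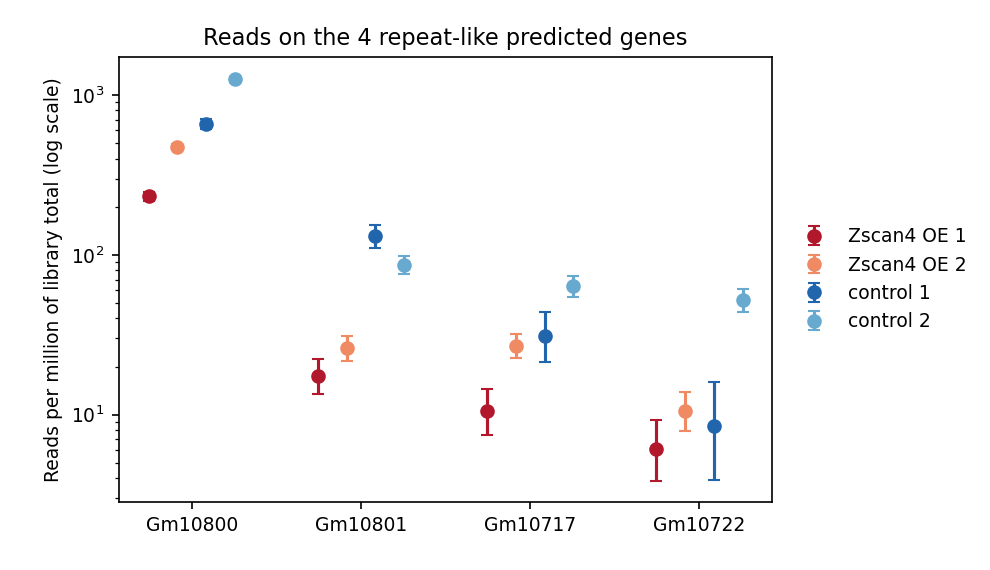
RPM of the library total (log scale) on each of the 4 genes, 1 point per library, with exact Poisson 95% intervals as bars. For Gm10800 the Zscan4 OE libraries stand at 232 and 475 RPM and the controls at 657 and 1249 RPM, while for Gm10722 control 1 lies between the Zscan4 OE libraries and control 2 stands alone at 52.0 RPM.

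Per length the order of the levels was the same in both groups. In Zscan4 OE it ran from 535 ± 260 RPKM for Gm10800 over 43.3 ± 12.1 for Gm10801 and 12.8 ± 4.90 for Gm10722 to 4.86 ± 3.01 for Gm10717 (SD, n = 2). In controls the corresponding levels were 1444 ± 635, 216 ± 62.4, 46.5 ± 47.3 and 12.2 ± 5.92 RPKM (SD, n = 2). Gm10800 was far above the other 3 in each library. Gm10722 and Gm10717 were neighbours in this order, and their control levels did not differ beyond their spread. By mean RPKM over the libraries Gm10800 ranked 1, Gm10801 9, Gm10722 63 and Gm10717 315 of all rows.

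Added together, the 4 genes took 959 and 2638 reads in Zscan4 OE 1 and 2, and 878 and 4213 reads in control 1 and 2. These sums were 266 RPM (249 to 283) and 538 RPM (518 to 559) in Zscan4 OE 1 and 2, and 827 RPM (773 to 884) and 1451 RPM (1407 to 1495) in control 1 and 2. The deepest library, Zscan4 OE 2, thus held fewer of these reads than control 2. The means were 402 ± 193 RPM in Zscan4 OE and 1139 ± 441 RPM in controls (SD, n = 2), a ratio of 0.353. Without Gm10800 the other 3 genes summed to 48.9 ± 20.9 RPM in Zscan4 OE and 186 ± 22.1 RPM in controls (SD, n = 2), a ratio of 0.263, and these sums did not overlap either. In bulk libraries a lower signal in every cell and a loss in some of the cells cannot be told apart.

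The table does not say which library total belongs to which column, and the placement used here was the one that makes the libraries' shares of reads on the table's rows most alike. In 5 of the 7 other placements that keep the order of the totals the summed ratio was also below 1, with a range of 0.243 to 1.42 over the 7. A share of the table's own reads needs no total. The 4 genes took 0.208% (exact binomial 95% interval 0.195 to 0.221) and 0.542% (0.522 to 0.563) of the table's reads in Zscan4 OE 1 and 2. In control 1 and 2 they took 0.669% (0.626 to 0.715) and 1.55% (1.501 to 1.59). These shares did not overlap between groups, and their ratio was 0.338.

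Across all rows the group comparison gave no call. Limma on log2(RPKM + 0.1) tested 42989 rows, and 0 were lower and 0 higher under overexpression at an adjusted p below 0.05 (0% of rows in each direction), with 573 lower and 2189 higher at an unadjusted p under 0.05. The log2 differences of the 4 genes on this scale were −1.45 for Gm10800 (SE 0.69 from its own 4 values), −2.31 for Gm10801 (SE 0.42), −1.37 for Gm10717 (SE 0.83) and −1.38 for Gm10722 (SE 1.36). Their median was −1.41, beside 0.28 over all tested rows. The moderated SE of the fit was 41.0 for Gm10800 and 3.57 for Gm10801, both far above their own spread. For Gm10717 (0.76) and Gm10722 (1.29) it was close to it. Limma's p is for that reason of no use for Gm10800 and Gm10801, and the absence of a call says nothing about either. In a fit with a trend the prior spread is set by a row's mean level, so other rows at these levels share it. The absence of a call is of little use for them too. Their moderated SEs were not examined. Voom on recovered reads, over 19012 rows with 20 reads or more, called 1 row lower (0.00526%), and this row was Gm10801. Since the gene was chosen with that result known, the call adds no support.

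Of the 4 genes, 3 had groups that did not overlap, all lower in Zscan4 OE, where 10.1% of all tested rows were lower without overlap. Among the 2620 rows with 100 reads or more that share was 8.51%. In this set the median ratio of Zscan4 OE to control was 1.07, 24 rows (0.916%) had a ratio below 0.5 and 59 rows (2.25%) one above 2. Higher values without overlap were found in 17.9% of the set. Counted from the lowest ratio, Gm10801 ranked 1, Gm10722 3, Gm10800 4 and Gm10717 6. These ranks follow from the way the genes were chosen and support nothing.

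**Figure D2:**
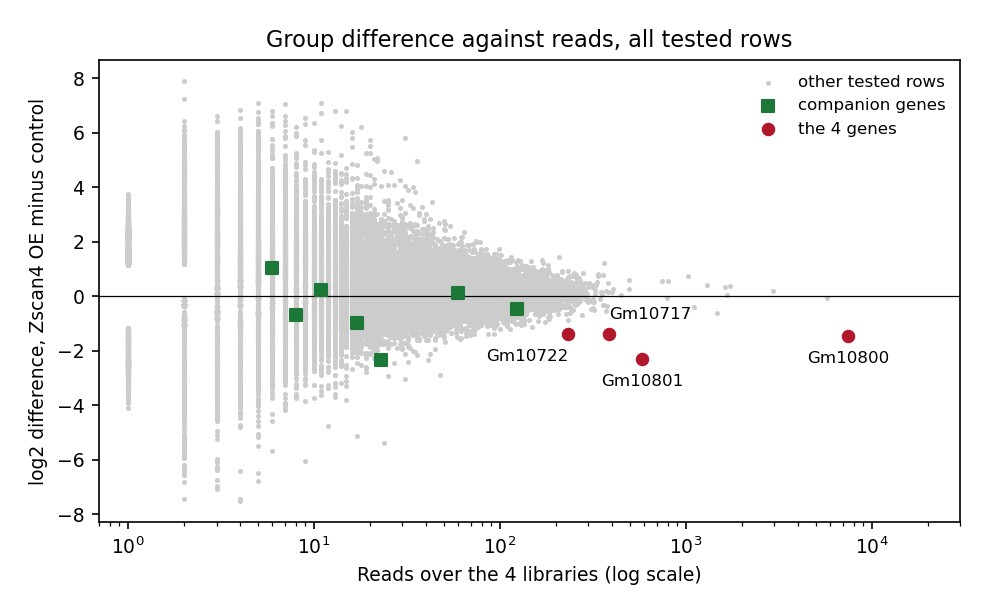
The log2 difference of Zscan4 OE minus control on the log2(RPKM + 0.1) scale against the reads summed over the 4 libraries (log scale), 1 point per tested row. The 4 genes (red circles) have differences between −2.31 and −1.37, and 7 companion genes (green squares) spread between −2.34 and 1.05.

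Replicates of a group differed by more than counting error for Gm10800. Zscan4 OE 2 had 2.05 times the RPM of Zscan4 OE 1, and control 2 had 1.90 times that of control 1. For Gm10717 the corresponding ratios were 2.56 and 2.04, and for Gm10722 they were 1.74 and 6.13. Gm10801 stood apart, with 1.495 in Zscan4 OE but 0.660 in controls. The median row with 100 reads or more differed 1.35-fold between the Zscan4 OE libraries and 1.56-fold between the controls, in either direction. Of these rows 6.37% differed more than Gm10800 between the Zscan4 OE libraries, and 31.5% did between the controls. For Gm10717 these shares were 1.83% and 25.8%. The spread of Gm10801 was exceeded by 35% of the rows between the Zscan4 OE libraries and by 52.7% between the controls. Its control intervals nevertheless did not overlap (110 to 155 RPM in control 1, 76.1 to 97.8 RPM in control 2). The gap of Gm10722 was exceeded by 17.2% of the rows between the Zscan4 OE libraries and by 0.344% between the controls. Some of the rows compared had few reads in a library, such as Pde7b with 10 in control 1, so their spread includes counting error. These shares therefore do not say that a gene's spread is ordinary for its read count.

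The balance among the 4 genes was not part of the choice. Gm10800 held 87.2% of their reads in Zscan4 OE 1 (exact binomial 95% interval 84.9 to 89.2) and 88.2% in Zscan4 OE 2 (86.9 to 89.4), against 79.4% in control 1 (76.6 to 82.02) and 86.1% in control 2 (85.0 to 87.1). Control 1 was the library apart. It had 5.01 reads on Gm10800 for each read on Gm10801, where the ratio was 13.3 in Zscan4 OE 1, 18.2 in Zscan4 OE 2 and 14.5 in control 2. The reads of the 2 genes thus did not keep 1 ratio across libraries.

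The balance of Gm10717 and Gm10722 also moved between libraries. There were 1.73 reads on Gm10717 for each on Gm10722 in Zscan4 OE 1 and 2.54 in Zscan4 OE 2, against 3.67 in control 1 and 1.22 in control 2. The share of both first genes, Gm10800 and Gm10801 together, averaged 93.4 ± 0.508% in Zscan4 OE and 93.6 ± 2.24% in controls (SD, n = 2). The difference of −0.248 percentage points was within the spread between replicates (exact two-sided permutation p = 1; the smallest p that 2 against 2 libraries allow is 0.333).

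**Figure D3:**
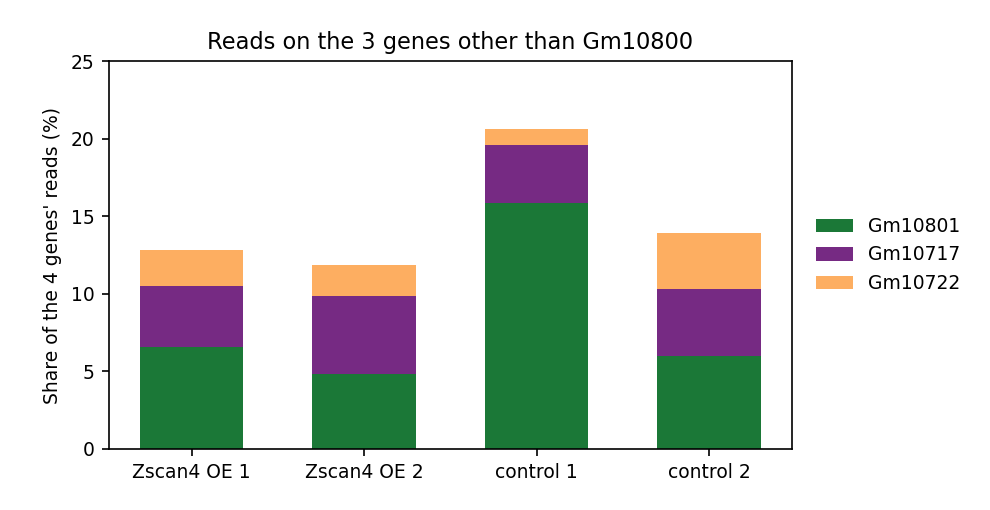
Share of the 4 genes' reads (percent, axis from 0 to 25) that fell on Gm10801, Gm10717 and Gm10722 in each library, the rest being on Gm10800. The bar of control 1 is the tallest, since Gm10800 held 79.4% of the reads there, against 86.1% to 88.2% in the other libraries.

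A further set of predicted genes, called companion genes here, was named from general knowledge as lying in the same satellite-rich stretch of the assembly as Gm10717 and Gm10722. The sources used here give no position to check this. Of 9 such genes 8 were in the table and 7 had reads. Their reads came almost wholly from 2 libraries. All 7 together had 10 reads in Zscan4 OE 1 and 70 in Zscan4 OE 2, against 2 in control 1 and 167 in control 2, or 2.77 and 14.3 RPM in Zscan4 OE 1 and 2 and 1.88 and 57.5 RPM in control 1 and 2. The groups overlapped.

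Gm26870, the companion with the most reads, had 1 and 37 reads in Zscan4 OE 1 and 2, against 0 and 86 in control 1 and 2. The 0 in control 1 is set against a floor of 3 reads, which is 2.83 RPM there (its exact Poisson 95% interval reaches 3.48 RPM), while Zscan4 OE 2 stood at 7.55 RPM and control 2 at 29.6 RPM. Gm11168 followed with 1 and 26 reads in Zscan4 OE 1 and 2, against 0 and 33 in control 1 and 2. Gm10715 had 0 and 1 reads in Zscan4 OE 1 and 2 and 0 and 22 in control 1 and 2, so it was seen almost only in control 2. The same held for Gm10718, with 1 and 1 reads in Zscan4 OE 1 and 2 and 0 and 15 in control 1 and 2.

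The remaining companions had few reads. Gm17535 had 1 and 3 reads in Zscan4 OE 1 and 2 and 0 and 7 in control 1 and 2. Gm10719 had 2 and 1 reads in Zscan4 OE and 0 and 3 in controls, and Gm10720 had 4 and 1 in Zscan4 OE and 2 and 1 in controls. Gm10721 was listed at 0 in all 4 libraries. In limma 3 of the 7 lay above 0 and 4 below, their median log2 difference was −0.46 beside 0.28 over all rows, and 0 passed (smallest adjusted p = 0.869, limma). Without control 1 the median was −2.85, and without control 2 it was 2.85, so the direction rested on the control kept. Gm10722 shared this pattern in part, its RPM in control 2 being 6.13 times that in control 1.

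**Figure D4:**
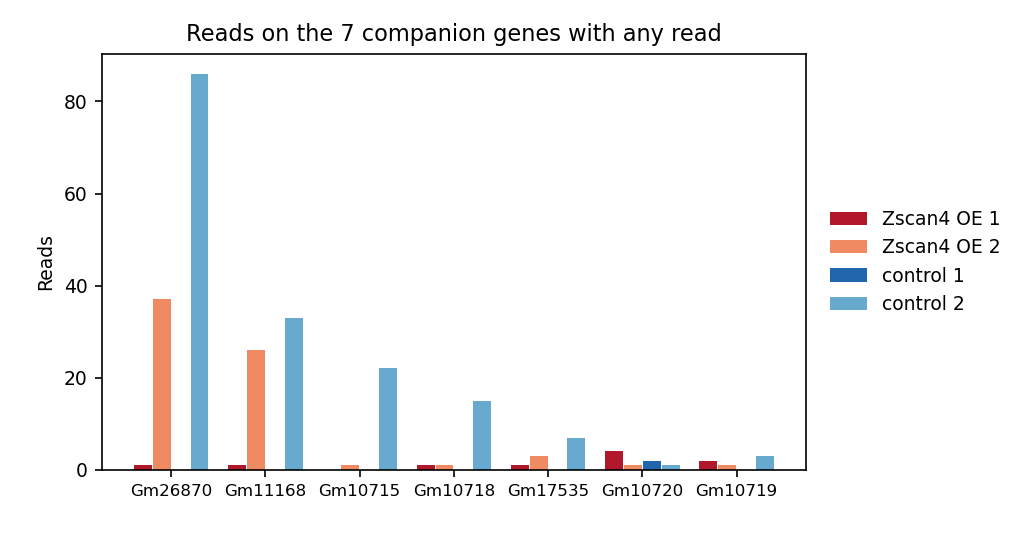
Reads on the 7 companion genes that had any, by library. Control 2 (light blue) and Zscan4 OE 2 (orange) hold nearly all reads, with 86 and 37 on Gm26870, while control 1 has 0 on all of these genes but Gm10720.

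Other multi-copy rows with many reads had their higher value in the other library of each group. Ribosomal RNA-like rows were represented by Gm26917 and Gm42418, and nuclear rows that resemble mitochondrial genes by 6 predicted genes such as Gm10925. The ribosomal RNA-like rows summed to 826 and 447 RPM in Zscan4 OE 1 and 2 and to 849 and 459 RPM in control 1 and 2. The mitochondrial-like rows summed to 1253 and 246 RPM in Zscan4 OE 1 and 2 and to 1034 and 232 RPM in control 1 and 2. Both sets were higher in Zscan4 OE 1 than in Zscan4 OE 2 and higher in control 1 than in control 2, whereas the sums of the 4 genes and of the companions were lower in Zscan4 OE 1 and in control 1. The ratios of Zscan4 OE to control were 0.974 for the ribosomal and 1.18 for the mitochondrial set, beside 0.353 for the 4 genes, and the difference between these ratios was not tested, since the last was part of the choice.

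Set against Gm26917 in the same library, Gm10800 had 0.358 and 1.41 reads per Gm26917 read in Zscan4 OE 1 and 2, and 0.983 and 3.50 in control 1 and 2, so on this scale its groups overlapped. Gm10717 overlapped too, at 0.0163 and 0.0800 in Zscan4 OE 1 and 2 and 0.0465 and 0.177 in control 1 and 2. So did Gm10722, at 0.00942 and 0.0315 in Zscan4 OE 1 and 2 and 0.0127 and 0.146 in control 1 and 2. Only the groups of Gm10801 stayed apart, at 0.0270 and 0.0776 in Zscan4 OE 1 and 2 and 0.196 and 0.242 in control 1 and 2. Gm26917 itself stood at 648 and 337 RPM in Zscan4 OE 1 and 2 and at 668 and 357 RPM in control 1 and 2. It was thus higher in library 1 of each group, where Gm10800, Gm10717 and Gm10722 were lower. Dividing by it therefore widens the spread of these genes between replicates. Whether the libraries' different content of multi-copy reads has a part in the lower values of the 4 genes was not tested.

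**Figure D5:**
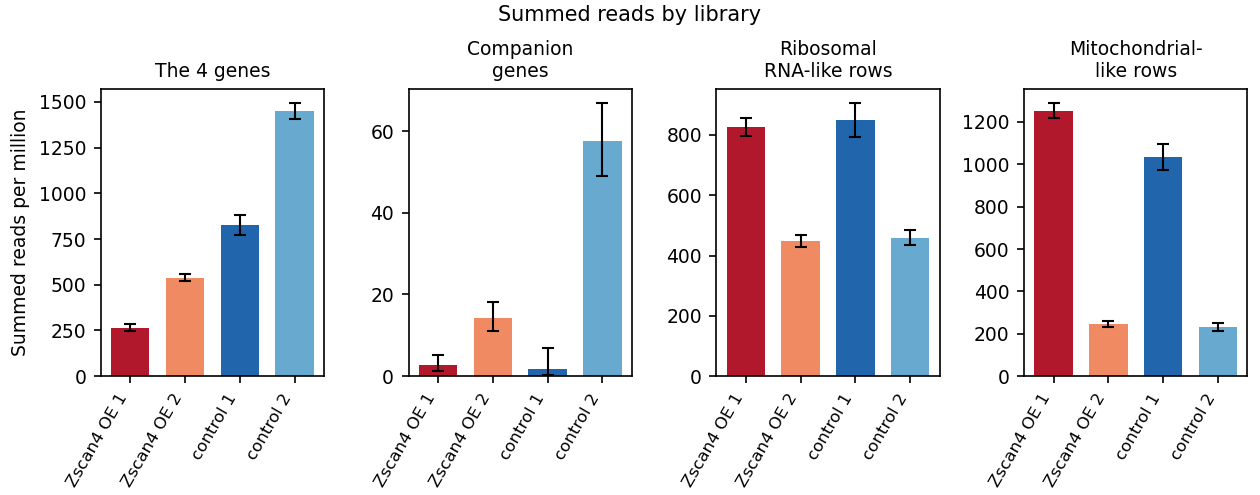
Summed RPM by library for the 4 genes, the companion genes, 2 ribosomal RNA-like rows and 6 mitochondrial-like rows, each panel with its own axis from 0 and exact Poisson 95% intervals. The 4 genes stand at 266 and 538 RPM in Zscan4 OE and 827 and 1451 RPM in controls, and the other 3 panels have groups that overlap.

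Outside the 4 genes, the rows with 100 reads or more whose pattern over the 4 libraries was nearest to that of their summed reads were Pde7b, Zdbf2, Ephb2, Ripor2 and Zfp652. Likeness was the Euclidean distance between log2(RPM + 0.1) values centred on their mean. These distances ran from 0.633 for Pde7b to 0.852 for Zfp652. The 4 genes themselves stood at 0.119 for Gm10800, 0.312 for Gm10717, 1.29 for Gm10722 and 1.302 for Gm10801. These values are no fair comparison, as the 4 genes make up the sum. Gm10800 held 79.4% to 88.2% of it, so its small distance follows from the construction. Pde7b, a cyclic AMP phosphodiesterase gene, had 17 and 35 reads in Zscan4 OE 1 and 2, against 10 and 42 in control 1 and 2. Ephb2, an ephrin receptor gene, had 24 and 41 in Zscan4 OE 1 and 2, against 13 and 53 in control 1 and 2.

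Genes for proteins of pericentromeric heterochromatin did not pass the test. Of 23 tested, 18 lay above 0 and 5 below, 0 passed (smallest adjusted p = 0.869, limma), and the median log2 difference was 0.39, which is 0.11 above that of all rows. Higher values without overlap were found in 6 of them, 26.1% of the list, where 19.6% of all tested rows were. Hells, a remodeller needed for DNA methylation at satellites, was at 1.66 and 1.303 RPKM in Zscan4 OE 1 and 2, against 0.785 and 0.526 RPKM in control 1 and 2. Setdb1, a histone H3 lysine methyltransferase, was at 1.34 and 0.864 RPKM in Zscan4 OE 1 and 2, against 0.687 and 0.804 RPKM in control 1 and 2.

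The overexpressed gene could not check the labels, as the 8 rows of the Zscan4 cluster held 2 and 1 reads in Zscan4 OE 1 and 2 and 1 and 0 reads in control 1 and 2. Stem cell markers had reads on all 10 genes except for 1 at 0 in control 1, summing to 66.8 and 37.8 RPM in Zscan4 OE and 46.2 and 27.9 RPM in controls. Fibroblast markers were listed as markers of feeder cells, without which the labels say the cells were grown. They also had reads on all 10 genes except for 1 at 0 in control 1, at 90.1 and 64.3 RPM in Zscan4 OE and 83.8 and 65.4 RPM in controls. Of all 46406 rows, 37302 and 38954 had reads in Zscan4 OE 1 and 2, and 27639 and 34642 in control 1 and 2. Having reads therefore does not mark a cell type. Neither sum is divided by gene length, and many of the fibroblast genes are longer. The levels of the stem cell and fibroblast sums therefore cannot be compared with each other. The part of feeder cells in the values of the 4 genes was not tested.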

How the data were processed

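ATAC-seq was measured in 4 libraries. The authors deposited RPKM values per gene, and the submitters' processing notes name mm10 as the build and list featureCounts, Bowtie2 and Trimmomatic. Versions, annotation and read filters are not stated there.

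The deposited RPKM were not on 1 scale per library: 8 library totals took turns from row to row. They were read off 2503 short RNA genes whose lengths RefSeq gives (GRCm38.p6). For each row the smallest whole length and whole reads that give the printed values were then solved. All 38361 rows with 2 or more values above 0 allowed exactly 1 rotation. A factor common to a row's reads and length would not be seen, and both would then be too low. Of the 1165 short RNA genes with 2 or more values above 0, 86.2% were given the annotated length. Of the 5918 rows with 1 value above 0, 963 allowed more than 1 rotation. The placement of totals was the one of 8 with the most alike table shares, a ratio of 1.36 between highest and lowest against 4.17 to 10.1 in the others. Exon reads were 12.8% and 9.93% of the totals in Zscan4 OE and 12.4% and 9.38% in controls. The placement was not checked by other means.

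Groups were compared with limma (version 3.58.1, R 4.3.3) on log2 of rescaled RPKM plus 0.1, using eBayes with a trend where a row's mean RPKM reached 0.1, two-sided with Benjamini-Hochberg adjustment. The recovery was tested on simulated data. For the fit, the check on simulated data required the right direction of changed rows but no number of calls. It therefore does not vouch for the calls. The plan assumed RPKM per library, so the planned test ran on rescaled values. Genes named are the 4 genes, the companions, the 10 most read other rows (some given as ranges), the multi-copy sets, the 5 nearest patterns, and up to 4 heterochromatin genes with the largest statistic. The genes and lists were chosen with earlier results of these data known. With no positions given, the planned fallback list stood for rows near the 4 genes. Since nothing says that libraries are separate cultures, p-values cover their spread alone, technical or not. Alternatives were the scaling, pseudocount, filter, voom, replicate block, placement of totals and leaving out each library.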

Additional observations from a re-analysis of the deposited data

How the results depend on the processing

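The summed ratio of the 4 genes, 0.353, was 0.338 with table reads as the total, 0.355 with the totals behind the deposited values and 0.353 without the genes' own reads in the totals. It ranged from 0.233 (without Zscan4 OE 2) to 0.486 (without control 2) as single libraries were left out, and the 7 other placements of totals gave 0.243 to 1.42, with 5 of them below 1. Gm10800, Gm10801 and Gm10717 stayed below 0 in the 14 alternatives run for single genes, which do not include other placements of totals, with lowest and highest log2 differences as libraries were left out of −1.97 and −0.93, −2.61 and −2.01, and −2.04 and −0.71 in that order. Gm10722 ranged from −2.68 (without control 1) to −0.07 (without control 2) and was 0.50 in the values as deposited, where other totals stand behind its columns.

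Calls stayed at 0 in each direction except for 4 higher and 1 lower with rows of 20 reads or more, 1 lower with voom, and the fits that left out a library. Those ranged from 0 to 4530 higher and 0 to 6 lower, and were above 0 when the first Zscan4 OE library (4530 and 6) or the second (3889 and 2) was left out. In these fits the spread comes from the 2 controls alone and the lone Zscan4 OE library is assumed to vary like them, so their counts are no measure of change. The median log2 difference of all rows was 0.28, against 1.40 as deposited, 0.21 with table reads as the total and −0.04 after quantile normalization. For the companion genes the median, −0.46 in the main fit, kept its sign in 10 alternatives and reversed in 4. It was 0.61 as deposited and 0.77 with a pseudocount of 0.01. Quantile normalization gave −1.20, centring the libraries on their median −0.73, and voom −2.29 over 3 rows. As libraries were left out it ran from −2.85 to 2.85, with 0.39 without Zscan4 OE 1. The share of reads on Gm10800 and Gm10801 differed by 0.0691 percentage points per length and by −1.83 to 1.34 as libraries were left out. The cause of these changes was not tested.

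Replicate numbers are shared by the groups, but no label says that they pair libraries. The deviations of control 1 and Zscan4 OE 1 from their group means had a correlation of 0.0423 over 42989 rows. That value weighs all rows alike, also those with few reads, and some well-read sets did move with the replicate number. The ribosomal RNA-like sum was 1.85 times as high in library 1 as in library 2 of either group. For the mitochondrial-like sum this ratio was 5.09 in Zscan4 OE and 4.45 in controls. The sum of the 4 genes was instead higher in library 2, by 2.02 times in Zscan4 OE and 1.75 times in controls. Gm10801 alone did not keep to this. Whether the libraries are paired was not tested. With the replicate number as a block the calls were 0 higher and 0 lower, and the log2 differences were unchanged by construction (−1.45 for Gm10800). Control 1, with the fewest reads, limits what can be seen of the genes with low counts.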

Other observations

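The 8 totals took turns from row to row. Counted from the step where every column had its own total, Gm10801 stood at step 8 and Gm10800 at step 1, which are 1 step apart in the cycle. Gm26870, Gm10722 and Gm11168 stood at steps 2, 3 and 4, and Gm10720, Gm10719, Gm10718 and Gm10717 at steps 6, 7, 8 and 1. Gm17535 and Gm10715 followed at steps 2 and 3. Gm10721, which had no reads, left no step to recover. The order in which these names are given here was chosen after their steps were seen.

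At step 1 the deposited values of Gm10800 and Gm10717 already carried each library's own total. Gm10801 and Gm10722 did not. In the values as deposited Gm10801 read 43.0 and 70.4 RPKM in Zscan4 OE 1 and 2, against 123 and 469 RPKM in control 1 and 2, whereas rescaling gave 34.7 and 51.8 RPKM in Zscan4 OE 1 and 2, against 260 and 172 RPKM in control 1 and 2. The higher control for this gene is thus control 2 as deposited and control 1 after rescaling. For Gm10722 the deposited values were 13.5 and 27.5 RPKM in Zscan4 OE 1 and 2, against 3.83 and 47.3 RPKM in control 1 and 2, and the rescaled values were 9.37 and 16.3 RPKM in Zscan4 OE 1 and 2, against 13.02 and 79.9 RPKM in control 1 and 2.

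Among the 10 most read rows outside the 4 genes, 9 had groups that overlapped, among them Gm26917 (5731 reads) and CT010467.1 (2941 reads). Of all rows with 100 reads or more, 17.9% were higher and 8.51% lower in Zscan4 OE without overlap, so 1 such row among 10 does not stand out. The tenth, Ttn, the titin gene with 800 reads, was higher in Zscan4 OE at 75.4 and 68.4 RPM in Zscan4 OE 1 and 2, against 39.6 and 52.0 RPM in control 1 and 2. Gm26870 had the second lowest ratio of Zscan4 OE to control among the 2620 rows with 100 reads or more, 0.264, with groups that overlapped.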
